A study of Mus musculus with 20 samples.

Results

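The 10 genes described here encode the interleukin-6 family cytokines Il6, Il11, Lif and Osm, the receptor chains Il6ra, Il6st, Lifr and Osmr, the transcription factor Stat3 and its feedback inhibitor Socs3. They were chosen by name and all 10 were found among the 52783 genes of the count table. RNA had been sequenced from cells of 66cl4 tumours, which metastasise to the lung, and of 67NR tumours, which do not. Both are sublines of the 4T1 mouse mammary carcinoma, and each tumour type therefore rests on 1 cell line. Female BALB/cJ mice aged 8 to 12 weeks had received 1000000 cells in the mammary fat pad, and 21 to 26 days later the tumours of 5 animals per line were dissociated and sorted on the leukocyte antigen CD45. Immune cells (CD45+) and the remainder (CD45-) gave 4 groups of 5 libraries. No animal carried a transgene or received a drug, and no library of a tumour-free mouse was analysed here.

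Interleukin-6 family cytokines signal through receptor complexes that share the chain gp130, encoded by Il6st. Interleukin-6 and interleukin-11 first bind a receptor of their own, leukaemia inhibitory factor (LIF) joins LIFR to gp130, and oncostatin M joins OSMR, and in some settings LIFR, to gp130. The complexes activate JAK kinases and the transcription factor STAT3, which switches on Socs3, whose protein binds gp130 and the kinases and shuts the signal down. In mammary tumours the family is known for traffic between leukocytes, stromal cells and carcinoma cells.

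Socs3 was the signalling gene of the list whose tumour difference was called in CD45- cells, and as the classic STAT3 target its promoter is shown. STAT proteins bind the palindrome TTCNNNGAA, which reads the same on both strands. The 250 bases before the RefSeq start of Socs3 (GRCm38.p6, minus strand, chr11:117969367-117969616) held it once, 154 to 146 bases before the start, printed in capitals.
Socs3: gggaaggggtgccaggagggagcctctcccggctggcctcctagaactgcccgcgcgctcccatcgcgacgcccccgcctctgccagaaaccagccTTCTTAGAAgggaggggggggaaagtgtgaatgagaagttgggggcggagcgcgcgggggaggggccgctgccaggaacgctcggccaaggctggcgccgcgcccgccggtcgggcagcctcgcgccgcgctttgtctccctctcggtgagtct
The palindrome TTCNNNGAA, with any bases at N, stood in 7.02% of 32851 such windows of all genes, and the match is a description of the sequence only. A window was found for 9 of the 10 genes (11 windows, Osm without an entry), and the upstream part of the others held no match.

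The libraries held 12960000 to 28080314 counts. Ptprc, which encodes CD45, exceeded its CD45- level by 33.6- to 1932-fold in the CD45+ cells of 10 of 10 animals, so the gates separated as named in the sample titles. In 66cl4 animals 5 and 6 both libraries carried a cell type label opposite to their title. The titles were used, Ptprc followed them in both animals, and results are given without these animals where they changed. The 6 epithelial markers of CD45- cells, summed, reached 6060 to 6845 normalised counts for 66cl4 tumours but 125 to 386 for 67NR tumours, and Krt8 (log2 fold change 6.47 ± 0.274 SE) and Krt18 (4.32 ± 0.379 SE) were called higher in 66cl4. Epcam was called lower there (-1.41 ± 0.515 SE), so the markers of this list did not move together. The 6 fibroblast markers summed to 7972 to 13665 and 10507 to 17281 in these groups. Of them 3 were called lower in 66cl4, with a median log2 fold change of -0.81.

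The family was divided between the gates. Osm and Lifr were high in CD45+ cells and low in CD45- cells of both tumours, whereas Osmr, Il6st, Lif and Il11 were higher in CD45- cells in 5 of 5 animals of each tumour. Il6 and Socs3 followed neither pattern and depended on the tumour. Levels are given as counts divided by the size factor of each library (normalised counts), as mean ± SD of 5 libraries, and levels of different genes are compared only as TPM, a relative abundance that allows for transcript length.

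**Figure D1:**
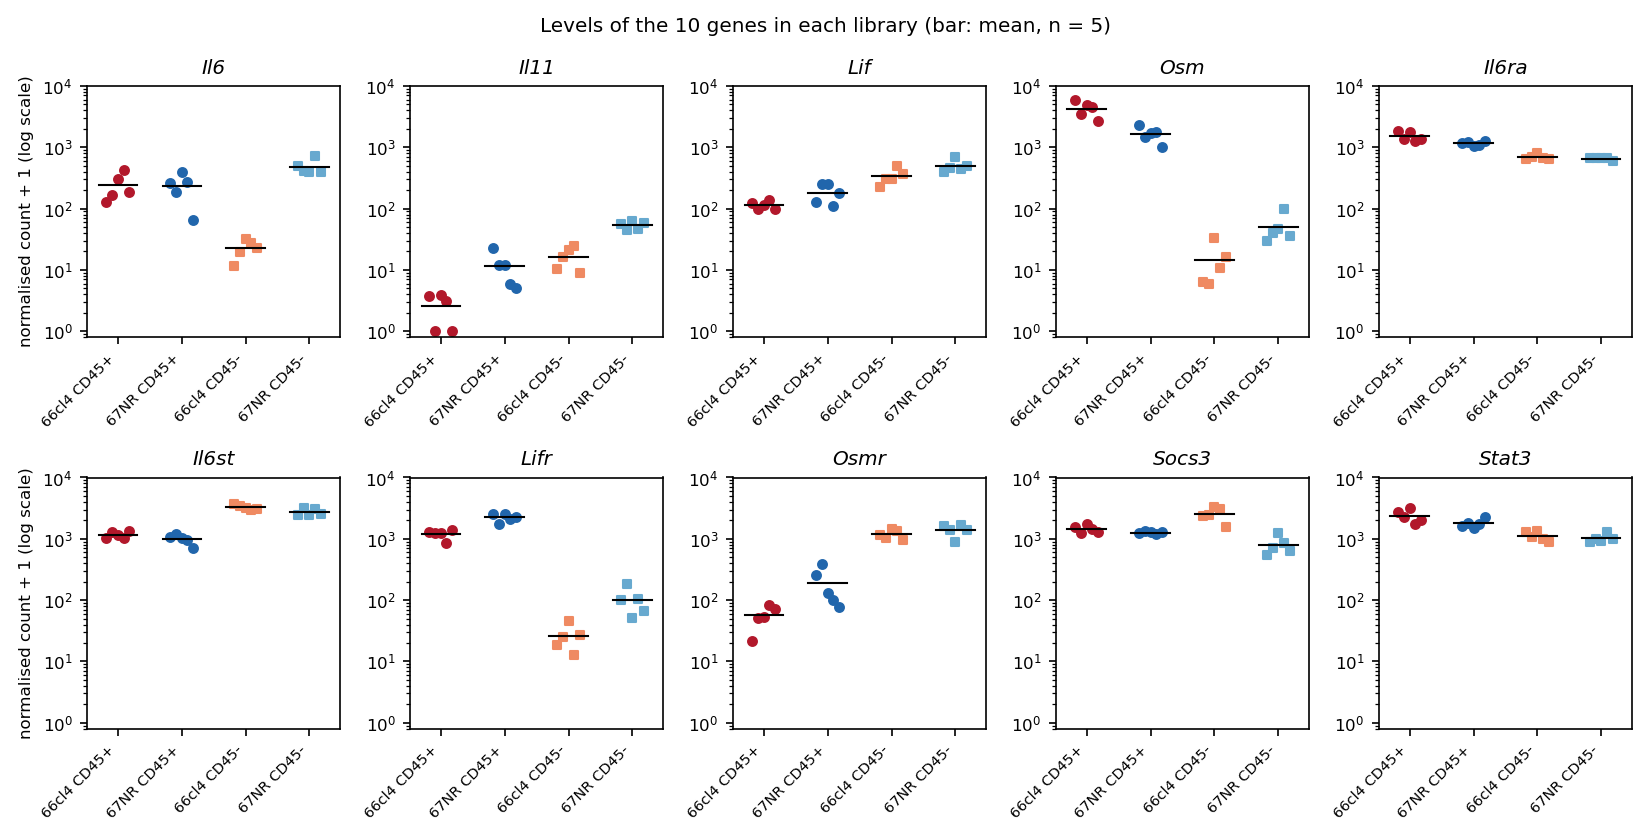
Normalised counts plus 1 (log scale) of each of the 10 genes, with 1 point per library, animals from left to right in ascending number, and a bar at the mean of 5 libraries. Osm and Lifr stand highest in CD45+ cells, Osmr and Il6st in CD45- cells, and Il6 is low in 66cl4 CD45- cells alone, with a mean of 21.7.

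In TPM, Osm was the most abundant of the 4 cytokines in CD45+ cells, with 185 ± 48.8 in 66cl4 and 70.9 ± 17.1 in 67NR tumours. Il6 followed with 11.99 ± 4.62 and 12.1 ± 6.18, and Lif stood at 2.73 ± 0.201 and 4.39 ± 1.61. In CD45- cells of 67NR tumours Il6 led with 25.5 ± 8.64 TPM, before Lif with 12.1 ± 2.22. In CD45- cells of 66cl4 tumours Lif led with 8.46 ± 2.21 TPM and Il6 reached 1.17 ± 0.427. Il11 stayed below 3 TPM in every library. Among the receptors, Il6st had the highest level in CD45- cells, at 78.7 ± 8.78 TPM in 66cl4 and 65.6 ± 13.4 in 67NR tumours, and Lifr in 67NR CD45+ cells, at 43.5 ± 5.44.

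The first comparison asked how immune cells of the metastatic and the non-metastatic tumour differed. Compared with 67NR CD45+ cells, 66cl4 CD45+ cells held more Osm and less Osmr. Lifr was lower as well, by less than the fold required. Il6 did not differ detectably, while Il11 was near the counting floor. Genes were called where edgeR's quasi-likelihood test gave an adjusted p-value under 0.05 with an absolute log2 fold change over 1. Of the 9 genes tested 2 were called, 1 in each direction, against 11.8% of the 14676 genes tested (5.01% higher and 6.82% lower in 66cl4). The median log2 fold change of the 9 genes was 0.20, and that of all genes tested was 0.01.

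Osm encodes oncostatin M, a cytokine made by neutrophils, macrophages and T cells. Its levels were 5823, 3490.5, 4856, 4561 and 2729.9 normalised counts in CD45+ cells of 66cl4 animals 3 to 7, and 2308, 1444, 1705, 1789 and 1007 in those of 67NR animals 1, 4, 5, 6 and 7. The lowest 66cl4 library lay above the highest 67NR library. Osm was 2.60-fold higher in 66cl4 tumours (log2 fold change 1.38 ± 0.249 SE, edgeR adjusted p = 0.00256), and the call held in 17 of 17 alternative analyses. Neutrophil markers moved in the same direction as Osm, and mast cell markers in the opposite one. Summed neutrophil markers reached 43616 to 123972 normalised counts for 66cl4 and 6974 to 51120.1 for 67NR, with 5 of 6 called higher in 66cl4. Mast cell markers summed to 619 to 1872 and 9301 to 13298, with 4 of 4 called lower. Macrophage markers summed to 44464 to 68700.1 and 65897 to 95880.1, with 1 of 6 called lower. T cell markers summed to 1320 to 4653 and 1158 to 5237, and B cell markers to 47.2 to 8572 and 116 to 1686, with none called. The part of these cells in the Osm difference was not tested, and in sorted bulk RNA fewer cells of a type and less RNA per cell cannot be told apart.

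Osmr encodes the signalling chain of the oncostatin M receptor and is known from stromal and epithelial cells. CD45+ cells of 66cl4 tumours held 20.9, 49.7, 52.1, 82.1 and 71.8 normalised counts, and those of 67NR tumours 254, 390.2, 130.1, 99.5 and 76.1. Both 67NR animals 1 and 4 stood above the rest, and 67NR animal 7 fell within the range of the 66cl4 libraries. Osmr was 3.44-fold lower in 66cl4 tumours (log2 fold change -1.77 ± 0.492 SE, edgeR adjusted p = 0.0253), a call made in 11 of 17 alternative analyses. It was lost without a filter on low counts (edgeR adjusted p = 0.0599), without 66cl4 animals 5 and 6 together (-1.98, edgeR adjusted p = 0.0683), without 66cl4 CD45+ animal 4 (edgeR adjusted p = 0.0536) or 5 (edgeR adjusted p = 0.0561), and without 67NR CD45+ animal 4 (-1.33, edgeR adjusted p = 0.0571). The fibroblast markers of the 67NR CD45+ libraries, summed, were 2009, 2302, 1055, 769 and 582, in the same order of animals as Osmr. In CD45+ cells of 66cl4 animals 3 to 7 these sums were 154, 540, 432, 536 and 1380.2, not in the order of animals of Osmr. Of these markers 2 of 6 were called lower in 66cl4 than in 67NR. The CD45+ level was 4.69% of the CD45- level for Osmr and 5.95% for fibroblast markers in 66cl4 tumours, and 13.8% and 10.1% in 67NR tumours. For epithelial markers this share was 11.7% in 66cl4 and 141% in 67NR tumours, and for endothelial markers 158% and 64.9%. The part of such cells in the CD45+ gate was not tested.

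Lifr, the signalling receptor of LIF, was present at 1313, 1243, 1240.0, 843 and 1380.2 normalised counts in 66cl4 and 2571, 1769.6, 2578, 2083 and 2271 in 67NR CD45+ cells. The ranges did not overlap. The log2 fold change of -0.89 ± 0.156 SE passed the adjusted p (edgeR adjusted p = 0.00200) and not the fold threshold. Il6ra, the chain that binds interleukin-6, likewise passed only the adjusted p, with 0.40 ± 0.126 SE (edgeR adjusted p = 0.0392).

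Il6, which encodes the founding cytokine of the family, was measured at 127, 167, 303, 419 and 184 normalised counts in 66cl4 and 259, 187, 394, 271 and 64.8 in 67NR CD45+ cells. The groups overlapped almost entirely, with a log2 fold change of 0.03 ± 0.449 SE (edgeR adjusted p = 0.972) whose sign depended on the libraries used. Lif had a value of -0.66 ± 0.238 SE (edgeR adjusted p = 0.0660), Stat3 of 0.43 ± 0.166 SE (edgeR adjusted p = 0.0866), Socs3 of 0.20 ± 0.108 SE (edgeR adjusted p = 0.201) and Il6st of 0.25 ± 0.157 SE (edgeR adjusted p = 0.291). None of these 4 passed the test. Il11, a cytokine of stromal and epithelial cells, had at most 3 counts in each 66cl4 CD45+ library, 5 of 5, and was removed by the filter. Its levels in 67NR CD45+ cells were 21.9, 10.99, 11.2, 4.79 and 4.12 normalised counts, at least 3.39-fold higher than 3 counts per 66cl4 library (two-sided exact permutation p = 0.00794, the smallest that 5 against 5 libraries allow).

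The same question was asked of the non-immune cells, which comprise tumour cells and stroma. Compared with 67NR CD45- cells, 66cl4 CD45- cells held much less Il6, less Il11, Osm and Lifr, and more Socs3. Of the 10 genes 5 were called, 1 higher and 4 lower, against 32.2% of 14844 genes (13.2% higher and 18.9% lower in 66cl4). Their median log2 fold change was -0.35, and that of all genes tested was -0.01.

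Il6 was measured at 10.6, 18.7, 30.8, 26.6 and 22.0 normalised counts in 66cl4 and 489.6, 403, 388, 719 and 389.7 in 67NR CD45- cells. The lowest 67NR library exceeded the highest 66cl4 library by 12.6-fold. The means differed 22.0-fold (log2 fold change -4.40 ± 0.249 SE, edgeR adjusted p = 3.47e-09), the widest tumour difference of the 10 genes in either gate. Il11 stood at 9.29, 14.96, 19.98, 23.4 and 7.99 in 66cl4 and 55.3, 44.3, 61.5, 46.1 and 58.3 in 67NR CD45- cells. These ranges did not overlap either, and Il11 was 3.51-fold lower in 66cl4 tumours (-1.76 ± 0.286 SE, edgeR adjusted p = 9.10e-05). Lif moved less, with 339 ± 102 and 496 ± 113 normalised counts, overlapping ranges and a log2 fold change of -0.52 ± 0.199 SE (edgeR adjusted p = 0.0347) under the fold threshold.

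Socs3 went the other way. CD45- cells held 2378, 2418, 3323, 3047 and 1529 normalised counts in 66cl4 and 550.2, 700.0, 1229, 859 and 622 in 67NR tumours. The lowest 66cl4 library, of animal 7, was above the highest 67NR library, of animal 5. Socs3 was 3.21-fold higher in 66cl4 tumours (1.71 ± 0.251 SE, edgeR adjusted p = 9.04e-05), and the call held in 17 of 17 alternative analyses. The level of Stat3 itself was 1122 ± 186 and 1021 ± 164 normalised counts (0.17 ± 0.128 SE, edgeR adjusted p = 0.257). The receptor chains of these cells had small values, namely 0.28 ± 0.0982 SE for Il6st (edgeR adjusted p = 0.0233, under the fold threshold), -0.19 ± 0.159 SE for Osmr (edgeR adjusted p = 0.301) and 0.12 ± 0.0840 SE for Il6ra (edgeR adjusted p = 0.219).

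Osm and Lifr were low in both CD45- groups. Osm was measured at 5.31, 4.99, 32.5, 9.56 and 14.97 normalised counts in 66cl4 and 28.1, 39.8, 45.7, 96.9 and 34.8 in 67NR CD45- cells, and only 66cl4 animal 5 reached into the 67NR range. The 3.64-fold difference (-1.81 ± 0.496 SE, edgeR adjusted p = 0.00555) became 5.63-fold without 66cl4 CD45- animal 5. Lifr stood at 17.3, 23.7, 44.1, 11.7 and 25.95 in 66cl4 and 98.3, 181, 49.2, 104 and 65.5 in 67NR CD45- cells, without overlap and 4.06-fold lower in 66cl4 tumours (-1.96 ± 0.382 SE, edgeR adjusted p = 0.000492).

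Several neutrophil, macrophage and mast cell markers were called lower in 66cl4 CD45- cells, whereas of the B cell markers Cd79a was called higher (2.16 ± 0.282 SE), with summed levels of 56.6 to 101.8 normalised counts for 66cl4 and 20.2 to 64.4 for 67NR. The CD45- level as a share of the CD45+ level was 0.314% in 66cl4 and 2.97% in 67NR tumours for Osm, 0.386% and 1.22% for Ptprc, 0.313% and 3.62% for neutrophil markers, and 1.01% and 2.54% for macrophage markers. This share was 0.839% and 25.3% for mast cell markers, 0.607% and 1.02% for T cell markers, and 2.20% and 7.35% for B cell markers. For Lifr it was 2.04% and 4.41%. Summed macrophage markers were 119 to 1635 normalised counts for 66cl4 and 1027 to 3708 for 67NR, with 3 of 6 called lower, and neutrophil markers 149 to 507 and 628 to 922, with 2 of 5 tested called lower. Mast cell markers summed to 0 to 27.9 and 177 to 8325, with Fcer1a and Ms4a2 at no more than 3 counts in every 66cl4 library. Endothelial markers summed to 519 to 1025 and 997 to 4135, with 4 of 5 called lower in 66cl4. Fibroblast markers, with 3 of 6 called lower in 66cl4, and epithelial markers are given above. The part of all these cells in the Il6, Il11, Osm, Lifr and Socs3 differences was not tested. For Il6, the 67NR CD45- level was 203% of the CD45+ level of the same tumours.

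**Figure D2:**
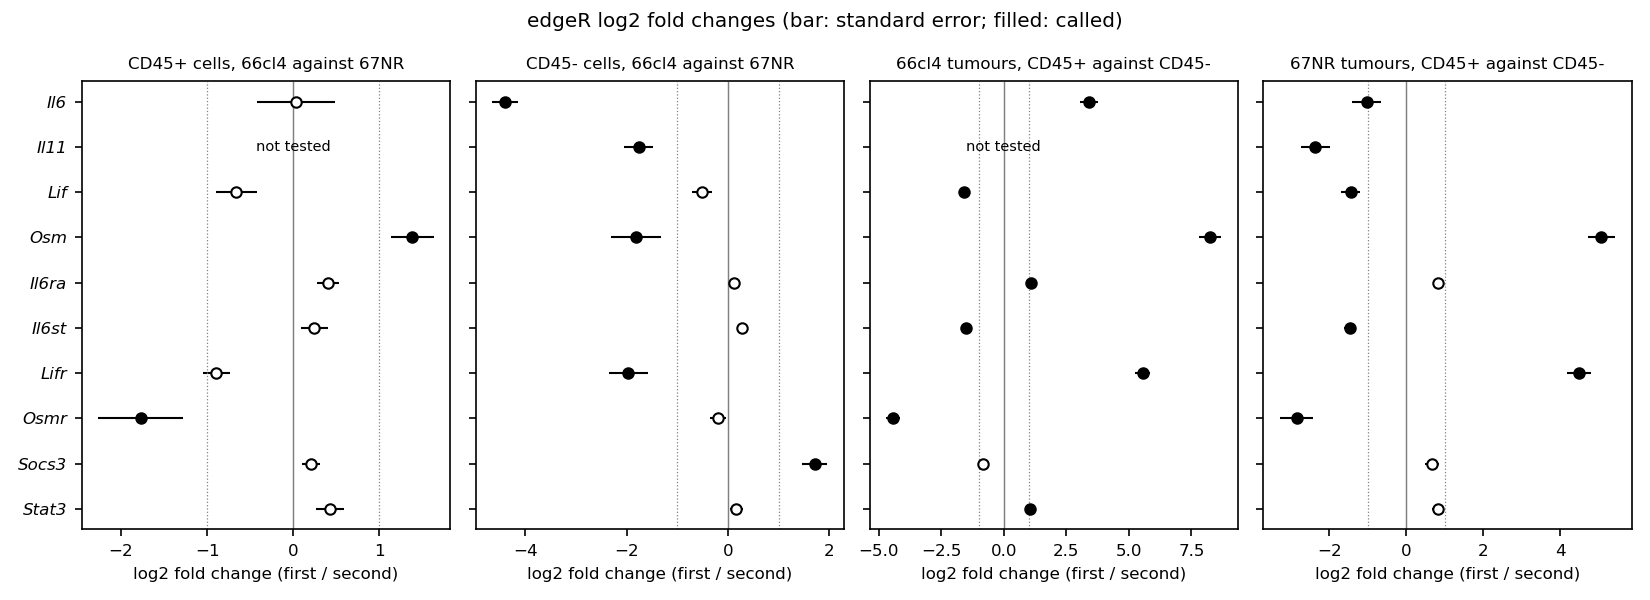
Log2 fold changes of the 10 genes in the 4 comparisons (first group over second), with bars for the standard error, filled points for called genes and dotted lines at the fold threshold of 1. Il11 was not tested where it is so marked; Il6 lies at -4.40 in CD45- cells and at 0.03 in CD45+ cells.

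Within 66cl4 tumours, immune and non-immune cells of the same animals were compared next. Osm, Lifr, Il6, Il6ra and Stat3 were higher in CD45+ cells and Osmr, Lif and Il6st lower. Of 9 genes tested 8 were called, against 44.4% of 14916 genes (23.9% higher and 20.5% lower in CD45+ cells). Their median log2 fold change was 1.06, and that of all genes tested was 0.00313. Osm was 319-fold higher in CD45+ cells (8.25 ± 0.448 SE, edgeR adjusted p = 1.70e-08), or 493-fold without 66cl4 CD45- animal 5, and Lifr 49.1-fold (5.55 ± 0.285 SE, edgeR adjusted p = 7.68e-09). Il6 was 11.04-fold higher (3.41 ± 0.368 SE, edgeR adjusted p = 3.45e-06), in 5 of 5 animals.

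Il6ra and Stat3 lay near the fold threshold, at 1.10 ± 0.121 SE (edgeR adjusted p = 3.72e-06) and 1.06 ± 0.169 SE (edgeR adjusted p = 9.59e-05). Leaving out CD45+ animal 5 gave 0.94 for Stat3, which was then not called. Osmr was 21.3-fold lower in CD45+ cells (-4.42 ± 0.283 SE, edgeR adjusted p = 4.49e-08), Lif 2.98-fold (-1.61 ± 0.198 SE, edgeR adjusted p = 9.83e-06) and Il6st 2.78-fold (-1.50 ± 0.113 SE, edgeR adjusted p = 1.22e-07). In 5 of 5 animals CD45+ cells had the lower Socs3 level, with -0.85 ± 0.185 SE under the fold threshold (edgeR adjusted p = 0.00121). Il11, again removed by the filter, was at least 4.84-fold higher in CD45- cells against 3 counts per CD45+ library (two-sided exact permutation p = 0.00794).

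Within 67NR tumours the gates differed in the same direction for most of the genes, but not for Il6 and Socs3. Of 10 genes 7 were called, 2 higher and 5 lower in CD45+ cells, against 39.8% of 15063 genes (20.2% higher and 19.6% lower). Their median log2 fold change was -0.17, and that of all genes tested was -0.05. Osm was 33.7-fold higher in CD45+ cells (5.06 ± 0.360 SE, edgeR adjusted p = 2.93e-07) and Lifr 22.7-fold (4.49 ± 0.312 SE, edgeR adjusted p = 2.44e-07). Osmr was 7.24-fold lower (-2.85 ± 0.425 SE, edgeR adjusted p = 0.000117), Il11 5.01-fold (-2.36 ± 0.386 SE, edgeR adjusted p = 0.000213), Lif 2.74-fold (-1.44 ± 0.252 SE, edgeR adjusted p = 0.000342) and Il6st 2.77-fold (-1.47 ± 0.152 SE, edgeR adjusted p = 6.52e-06).

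Il6 was 2.03-fold lower in 67NR CD45+ than CD45- cells (-1.02 ± 0.376 SE, edgeR adjusted p = 0.0311), and 1 of 5 animals, animal 5, had the higher level in CD45+ cells, by 1.02-fold. This call was not stable, since 9 of 16 alternative analyses made it. It was lost on leaving out CD45- animal 1 (edgeR adjusted p = 0.0508) or 6 (edgeR adjusted p = 0.0865), or CD45+ animal 4 (edgeR adjusted p = 0.0632) or 7 (-0.72). In 5 of 5 animals Socs3 stood higher in CD45+ cells, by 1.05- to 2.25-fold, with 0.67 ± 0.189 SE (edgeR adjusted p = 0.00786). Il6ra (0.83 ± 0.0825 SE, edgeR adjusted p = 4.59e-06) and Stat3 (0.81 ± 0.132 SE, edgeR adjusted p = 0.000205) were higher in 5 of 5 animals too, and these 3 genes stayed under the fold threshold.

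Whether the tumour difference itself depended on the gate was tested as an interaction over all 20 libraries, called with an adjusted p-value under 0.05. A positive value means that 66cl4 stood higher relative to 67NR in CD45+ than in CD45- cells. It was called for Il6, Osm and Lifr with positive and for Osmr and Socs3 with negative values, 5 of 10 genes, against 43.1% of 16453 genes (21.9% higher and 21.2% lower). The median was 0.12, and that of all genes tested was 0.03. Ptprc had 1.65 and was called as well. Neutrophil markers had a median of 3.17 with 5 of 6 called, and mast cell markers 4.79 with 4 of 4. Macrophage markers had 1.38 with 1 of 6 called, and T cell (1.53) and B cell markers (3.75) had none called. Fibroblast markers had -0.48, with 1 of 6 called. The part of these cells in the interaction values was not tested. The comparisons share libraries, so their values are set side by side and are not independent of each other.

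For Il6 the interaction was 4.46 ± 0.569 SE (edgeR adjusted p = 4.25e-06), since the tumours differed in CD45- cells while their CD45+ ranges overlapped. For Osm it was 3.21 ± 0.551 SE (edgeR adjusted p = 0.000121), with a tumour difference of 1.38 in CD45+ and -1.81 in CD45- cells. Both calls held in 26 of 26 alternative analyses. Socs3 had -1.50 ± 0.277 SE (edgeR adjusted p = 0.000227), with 0.20 in CD45+ and 1.71 in CD45- cells. Osmr had -1.54 ± 0.512 SE (edgeR adjusted p = 0.0210), and that call, made in 23 of 26 alternative analyses, was lost without a filter on low counts (edgeR adjusted p = 0.0524), without 66cl4 animals 5 and 6 (edgeR adjusted p = 0.0783) and without 67NR CD45+ animal 4 (-1.08, edgeR adjusted p = 0.0588). Lifr had 1.08 ± 0.415 SE (edgeR adjusted p = 0.0427), and with the animal as a block, which pairs the gates of each mouse, 1.04 (edgeR adjusted p = 0.0712). It was called in 8 of 26 alternative analyses. Values for Il11 (-0.95 ± 0.730 SE, edgeR adjusted p = 0.305), Lif (-0.14 ± 0.326 SE, edgeR adjusted p = 0.751) and the other genes did not pass the test.

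**Figure D3:**
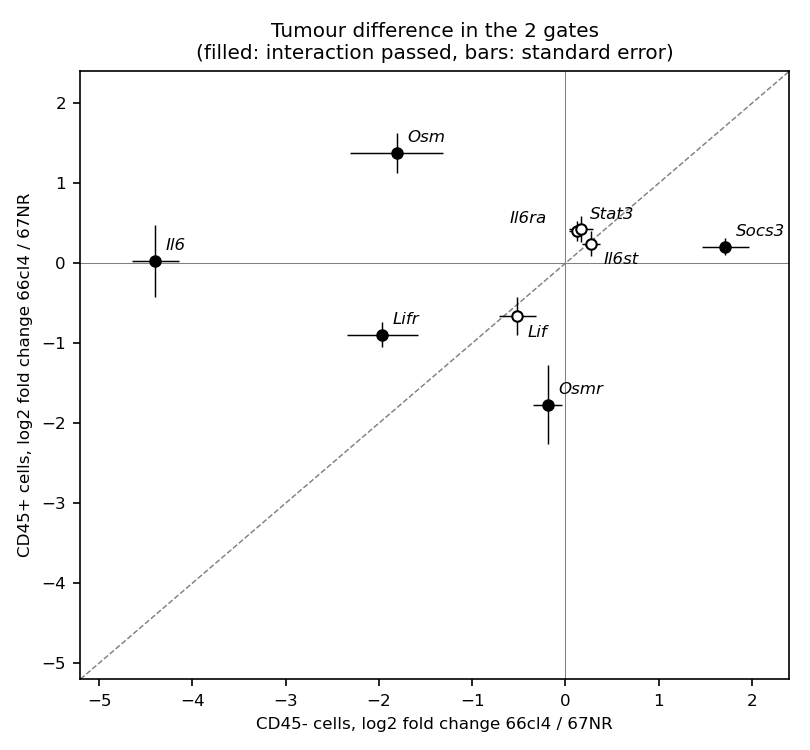
Log2 fold change 66cl4 over 67NR in CD45- cells (horizontal axis) and in CD45+ cells (vertical axis) of the 9 genes tested in both, with standard errors, the line of equal differences dashed and filled points where the interaction passed. Il6 and Osm lie far above the line, at 4.46 and 3.21 in the interaction, and Osmr and Socs3 below it.

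The rest of the pathway was described with a list of 39 genes, namely 7 further ligands and subunits, 4 receptors, 12 kinases, inhibitors and sheddases, and 16 genes known as STAT3 targets. In CD45+ cells 5 were called higher and 2 lower in 66cl4 among 34 tested, beside 5.01% and 6.82% of all genes tested, with a median log2 fold change of 0.15. All 5 that rose were STAT3 targets, 5 of 16 (median 0.74). They were Saa3, an acute phase apolipoprotein (3.44 ± 0.554 SE), Lrg1 (1.36 ± 0.424 SE), the haemoglobin scavenger Hp (1.19 ± 0.331 SE), the protease inhibitor Timp1 (1.05 ± 0.341 SE) and the transcription factor Cebpb (1.04 ± 0.222 SE). The Saa3 level was 164 to 830.0 normalised counts for 66cl4 and 15.4 to 71.9 for 67NR, without overlap. Several of these genes are also expressed by neutrophils, whose markers moved with them as given above. Lcn2, a neutrophil granule protein, had 1.46 and was not called.

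Il27, a subunit of interleukin-27, was among the genes that fell (-1.18 ± 0.302 SE), with 14.7 to 36.2 normalised counts in CD45+ cells of 66cl4 and 38.6 to 70.3 in those of 67NR tumours. None of the 12 kinases, inhibitors and sheddases was called, and the largest value was -0.96 for Socs2. Of the receptors, Il11ra1 had -0.90 and Il27ra 0.08, neither called.

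In CD45- cells 3 of 33 pathway genes tested were called higher and 7 lower in 66cl4, shares near the 13.2% and 18.9% of all genes tested, with a median of 0.07. Socs2 and Cish, inhibitors best known downstream of STAT5, fell by 4.34 ± 0.174 SE and 2.50 ± 0.372 SE on the log2 scale. Socs2 stood at 60.4 ± 15.9 normalised counts in 66cl4 and 1261 ± 196 in 67NR CD45- cells. Cish was low, at 6.92 ± 2.00 and 41.1 ± 20.2, against means of 265 and 275 in CD45+ cells. Among the ligands, Clcf1 fell by 1.32 ± 0.163 SE, while Ebi3, the shared subunit of interleukin-27 and interleukin-35, rose by 2.52 ± 0.320 SE. Il11ra1, the receptor of interleukin-11, fell by 1.56 ± 0.171 SE, although this gene has near-identical copies among which reads may be divided. Of the STAT3 targets, Saa3 (1.61 ± 0.330 SE) and Bcl3 (1.35 ± 0.246 SE) rose, and Lrg1 (-1.86 ± 0.455 SE) and Cebpd (-1.06 ± 0.163 SE) fell. Lrg1 was low too, at 9.05 ± 4.73 normalised counts in 66cl4 and 34.8 ± 19.8 in 67NR CD45- cells. Its CD45+ means were 278 and 109. The part of leukocytes left in the CD45- gate in the Cish and Lrg1 differences was not tested. Saa3, higher in 66cl4, was called in the same direction in both gates.

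**Figure D4:**
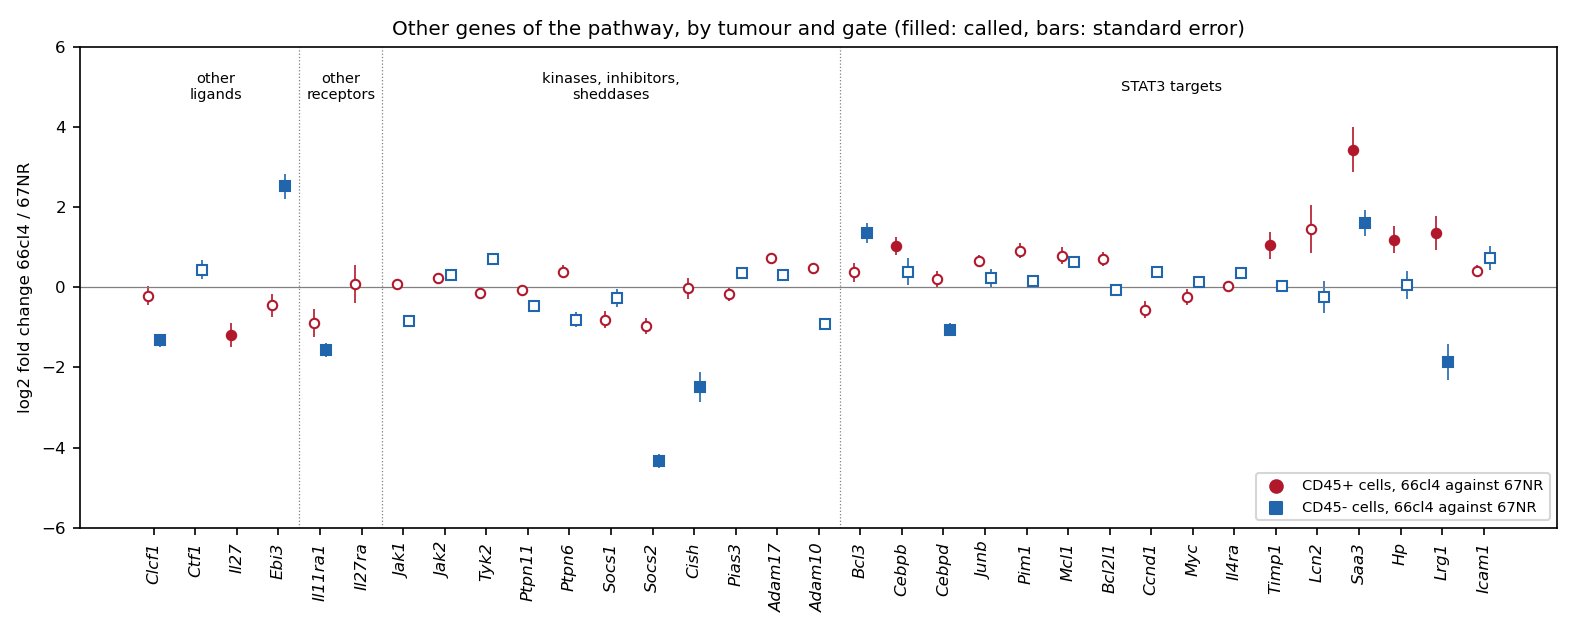
Log2 fold change 66cl4 over 67NR of the pathway genes reported here, as tested in CD45+ cells (circles) and CD45- cells (squares), with standard errors and filled symbols for called genes. Saa3 is high in both gates, and Socs2 and Cish are low in CD45- cells.

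Between the gates, 23 of 34 pathway genes were called higher and 3 lower in 66cl4 CD45+ cells (median 1.63), beside 23.9% and 20.5% of all genes tested. In 67NR CD45+ cells 16 of 35 were called higher and 8 lower (median 0.88), beside 20.2% and 19.6%. In both tumours the phosphatase Ptpn6, known from blood cells, was higher in CD45+ cells (5.62 in 66cl4 and 4.43 in 67NR on the log2 scale), as were Cish (5.18 and 2.73), Il27ra (5.94 and 5.62) and Hp (6.12 and 4.98). The Il27ra values rest on CD45- means near the counting floor, 3.32 normalised counts in 66cl4 and 4.28 in 67NR tumours. There 3 of 5 and 2 of 5 libraries had at most 3 counts. Il27 had at most 3 counts in every CD45- library, and was at least 7.45-fold higher in 66cl4 and at least 19.0-fold higher in 67NR CD45+ cells. Lrg1 was higher by 4.83 and 1.63, Icam1 by 4.17 and 4.53, and Ebi3 by 2.51 and 5.49. Ctf1, which encodes cardiotrophin, was lower in CD45+ cells of both (-3.88 and -2.12). Il11ra1 was lower in 67NR CD45+ cells (-1.57), and had -0.90 in 66cl4 tumours, where it was not called.

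The interaction was called for 20 of 35 pathway genes, 14 with positive and 6 with negative values (median 0.42), beside 21.9% and 21.2% of all genes tested. Among inhibitors, kinases and sheddases the positive values were 3.40 for Socs2, 2.46 for Cish, 1.42 for the sheddase Adam10, 1.20 for Ptpn6, 0.92 for Jak1, 0.42 for the sheddase Adam17 and 0.39 for Ptpn11, and the negative ones -0.83 for Tyk2 and -0.54 for Pias3. For Socs2 the gates were ordered oppositely in the tumours, with 316 ± 47.8 normalised counts in CD45+ and 60.4 ± 15.9 in CD45- cells of 66cl4, and 618 ± 155 and 1261 ± 196 in those of 67NR tumours. Among STAT3 targets the values were 3.25 for Lrg1, 1.86 for Saa3, 1.28 for Cebpd, 1.04 for Timp1, 0.77 for Bcl2l1 and for Pim1, -0.93 for the cyclin Ccnd1 and -0.98 for Bcl3. Among ligands they were 1.11 for Clcf1, -1.73 for Ctf1 and -2.97 for Ebi3. Il11ra1 and Il27ra had 0.69 and 0.33, neither of them called. Cntf, Il31, Cntfr and Il31ra were too low to test in any comparison.

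The most similar genes over the 20 libraries were found by the root mean square difference of log2 (normalised count + 1) after centring, among 13704 genes. Osm was closest to Srgn (0.43), a granule proteoglycan of blood cells, and Lilr4b (0.43). Osmr was closest to Gdnf (0.30) and Sema3c (0.32), Il6st to Sptbn1 (0.13) and Pkd1 (0.19), and Il6ra to Npc1 (0.13). Il6 and Il11 had no close match. The nearest to Il6 were Kctd4 (0.62) and Wdr54 (0.70), both of low counts, and to Il11 Etv4 (0.65) and Il1r1 (0.66). Lif was closest to Pdp1 (0.31) and Cep89 (0.31), Socs3 to Ubxn8 (0.28) and Asl (0.28), and Lifr to Panx1 (0.46) and Zfp422 (0.47). These values order patterns over libraries that fall into 4 groups and are a description only.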

How the data were processed

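Reads had been trimmed with fastp and estimated per transcript with Salmon 1.3.0, summed to genes with tximport and deposited by the authors as estimated counts of 52783 genes without normalisation. The sources name GRCh38, a human reference, whereas the gene identifiers are those of mouse. A mouse gene name table gave symbols for 51492 of these. Where genes are alike, the estimation may split their reads. Counts were rounded to whole numbers. Libraries were grouped by the sample titles, which name tumour, animal and gate. All replicate pairs differed by more than sampling noise. Total counts were 12960000 to 28080314 per library, and the floor of 3 counts covers counting error only. Standard errors were derived from the fits over libraries, as the absolute log2 fold change divided by the square root of the F statistic. They include the spread between animals.

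Comparisons used edgeR 4.0.16 in R 4.3.3 and its quasi-likelihood F-test (TMM, filter with minimum count 10 and total 15, robust fit) over all genes passing the filter, with Benjamini-Hochberg adjustment, and called with the adjusted p under 0.05 and a log2 fold change beyond 1 in either direction, the thresholds of the study. Only the groups compared entered a fit, and the interaction used all 20 libraries. Normalised counts are counts divided by size factors of DESeq2 1.42.0. TPM used mean transcript lengths of the reference. Promoter windows are those of RefSeq on GRCm38.p6, 250 bases before each start. The procedure was tested on simulated data with 200 genes changed 4-fold. There edgeR recovered 188 to 191 of them in the 4 comparisons and 158 in the interaction. False calls made up 3.57% to 7.39% of its calls, and 16% of those of DESeq2 in the interaction. Figures used matplotlib 3.10.9 in Python 3.11.15.

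Both gates of an animal came from the same tumour, and the correlation of their deviations from the group means was 0.0245 to 0.124 in 66cl4 and -0.00143 to 0.303 in 67NR animals. Between tumours, equal animal numbers mark different mice. The Wald test of DESeq2, RLE factors, fits without a filter or with all 20 libraries, and blocks for the animal or its number were tried, as were fits without 66cl4 animals 5 and 6 and without each library in turn. Total counts as library sizes were added after the data were seen. CPM and TPM were tried for levels.

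The genes, lists and tests were chosen with earlier results of these data known. All 10 genes are named. Pathway genes are given with values if called in the same direction in both tumour comparisons or in the interaction, or if among the 2 largest absolute log2 fold changes of a sublist in a comparison. The other called genes between the tumours, Timp1, Hp, Cebpb, Clcf1, Cebpd and Bcl3 among them, and Ptprc are named in addition, as are up to 2 most similar genes for each of the 10. Some genes that these rules select are not reported here.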

Additional observations from a re-analysis of the deposited data

Results flagged for a closer look

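Of 40 gene and group combinations examined, 4 held a library that stood far from the other 4 relative to the range of the group, where chance gives about 1 in 20. Osm was highest in CD45- cells of 67NR animal 6, at 96.9 normalised counts, and Stat3 was highest there too, at 1302. Il6ra was lowest in CD45- cells of 67NR animal 7, at 607. Lifr was lowest in CD45+ cells of 66cl4 animal 6, at 843. Without that library the CD45+ ratio of Lifr, 67NR over 66cl4, changed from 1.87 to 1.74.

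The tumour difference depended on the gate by edgeR's interaction test for 5 genes, with values of 4.46 for Il6, 3.21 for Osm, 1.08 for Lifr, -1.54 for Osmr and -1.50 for Socs3 on the log2 scale. Those of Lifr and Osmr did not hold in every alternative, as given beside them.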

How the results depend on the processing

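Of 896 log2 fold changes of the 10 genes under the alternatives, 846 kept their direction and side of the threshold, 37 kept the direction and lost the call, and 13 changed sign, each of a gene not called. All 80 ratios of mean levels under CPM and TPM moved by less than the spread between replicates. The 93 counts of called genes over the table stayed within 1.5 times their main values, with 1296 to 2555 against 1736 in CD45+ cells and 4762 to 6775 against 4774 in CD45- cells, as did 86 of 93 counts of called members. In CD45+ cells 1 member was called instead of 2 with the replicate number as a replicate block, where Osmr had -1.11 (edgeR adjusted p = 0.230), and 1 without 66cl4 animals 5 and 6. Leaving out single libraries gave 1 to 2. Without a filter Osmr was not called (edgeR adjusted p = 0.0599). In the interaction 3 members were called without a filter and 3 to 5 when single libraries were left out, where adjusted p-values of Lifr ranged from 0.0153 to 0.155. With the animal as a replicate block 4 were called, and apart from Lifr no call of a member changed under that pairing. Il6 in CD45+ cells had -0.054 with total counts as library sizes, an alternative added after the data were seen, -0.56 without 66cl4 animals 5 and 6, and -0.26 to 0.29 without single libraries. The interaction of Lif was 0.0052 without animals 5 and 6 and -0.36 to 0.0038 without single libraries, and that of Il6st 0.0031 with RLE factors, 0.048 without animals 5 and 6 and -0.18 to 0.069 without single libraries. In 67NR tumours the Il6 difference between gates was -0.98 with DESeq2 and with RLE factors. In 66cl4 tumours Il6ra was called in 16 and Stat3 in 15 of 17 alternatives. Il11, removed by the filter in CD45+ cells, was called there by DESeq2, without a filter and with all 20 libraries (-2.82 to -2.71). DESeq2 moved the median of all genes by -0.19 in CD45- cells and by 0.15 in 66cl4 tumours and the interaction, and total counts moved it by -0.10 in 66cl4 tumours. The cause of these changes was not tested.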
